A study of Mus musculus with 135 samples.

Results

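Pnpla3, on mouse chromosome 15, was examined in single ovulated (metaphase II) oocytes together with Gm49513, a non-coding gene model that overlaps it, its downstream neighbours Samm50 and Parvb, and its relatives Pnpla2, Pnpla6, Pnpla7 and Pnpla8. These 8 genes were taken by name from the 53715 in the count tables. Pnpla3 and Gm49513 were chosen by measured values: their counts in the knockout oocytes of these samples stood far above those in wild type (WT). Their differences from WT are therefore given as descriptions, with no test. The other 6 genes were listed for where they lie or for the family they belong to.

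The PNPLA family shares a patatin-like domain that cuts fatty acids from lipids. The protein of Pnpla3 sits on lipid droplets, hydrolyses acyl chains, and is best known in human liver, where an inherited variant goes with fatty liver disease. Pnpla2 encodes adipose triglyceride lipase, which starts the breakdown of stored triglyceride. Pnpla6 and Pnpla7 encode lysophospholipases of the endoplasmic reticulum, and Pnpla8 encodes a calcium-independent phospholipase of mitochondria and peroxisomes. Samm50 encodes the core of the machinery that inserts barrel proteins into the outer mitochondrial membrane. Parvb encodes beta-parvin, which joins integrin-linked kinase to actin at cell adhesions. Oocytes store lipid in droplets and draw on it during maturation.

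All animals were C57BL6/129, and the females were 2 to 4 months old (young) or 10 to 12 months old (old). Knockout (KO) animals lacked Tet1 or Tet2, enzymes that oxidise methylated cytosine in DNA, and the deleted exons are not named in the labels. Oocytes whose titles share an identifier formed a set, and the set was the replicate. Young Tet1KO held 15 oocytes in the sets T146 and Young_Tet1-/-_201, young Tet2KO 16 oocytes in T213 and T214, and young WT 38 oocytes in T148, T211, T231 and Young_WT__246. Old Tet1KO held 6 oocytes in Old_Tet1-/-_209 and Old_Tet1-/-_315 (1 oocyte), old Tet2KO 7 oocytes in S161, and old WT 12 oocytes in Old_WT_247 and Old_WT_365. Which animal gave which set is not stated, so every p-value measures the spread between sets only. E13.5 primordial germ cells (PGCs) pooled from several embryos gave 1 library labelled Tet2KO and 1 WT library.

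Total gene counts ran from 2354503 to 12472307 per oocyte. All 15 oocyte markers (such as Gdf9 and the Zp genes) were counted in every group, at a sum of 11759 to 34617 CPM per oocyte (CPM, counts scaled to the same total in every library). The 8 hepatocyte markers, listed because Pnpla3 is best known in liver, summed to at most 1.88 CPM in any oocyte, and Apoa1, Apoa2 and Serpina1a were at 0 in all 94. The 14 cumulus and granulosa markers summed to 18.7 to 99.6 CPM and the 7 adipocyte markers to 17.1 to 196 CPM. In young WT 1 gene made up most of each sum. Cyp19a1 averaged 41.3 CPM over sets beside a median sum of 50.1 CPM per oocyte, and Lpl 76.4 CPM beside 77.7 CPM. Nr5a2, the second highest cumulus and granulosa marker per kilobase, averaged 11.9 CPM there, and Adipoq 0.19 CPM. Of the 14 cumulus and granulosa markers 12 had a count in young WT, and Amh and Fshr had none. Of the 7 adipocyte markers 6 had a count there, and Lep had none. The 10 macrophage markers summed to 3.72 to 25.1 CPM per oocyte outside old Tet2KO, and in S161 to a median of 24.2 CPM with 1742 CPM in oocyte 6. Tet1 had 2 counts over the 15 young Tet1KO oocytes against 495 over the 38 young WT oocytes, and 1 count over the 6 old Tet1KO oocytes against 82 over the 12 old WT oocytes. Tet2 was still counted in the Tet2 knockouts, whose deleted part is not known here. It averaged 1.24 ± 0.084 CPM in young Tet2KO (SD, n = 2 sets) and 2.41 ± 0.70 CPM in young WT (n = 4 sets), and it was at 1.27 CPM in S161 and at 4.03 ± 1.03 CPM in old WT (n = 2 sets).

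Pnpla3 (ENSMUSG00000041653.5, 84167837 to 84187236 of chromosome 15 in mm10, plus strand) has 10 exons and 1548 bases in the annotation that was counted. The 250 bases before its start in the RefSeq table (GRCm38.p6, the same assembly; that start lies 21 bases before the start in the count tables) are shown because the level of this gene was the largest difference among the 8. Capitals mark a CCAAT box on the minus strand (ATTGG as printed), an octamer (ATTTGCAT), 2 GC boxes (GGGCGG) and a cAMP response element (TGACGTCA), whose first bases lie 99, 79, 125 and 61, and 46 bases before the start.
Pnpla3 promoter, chr15:84167566-84167815: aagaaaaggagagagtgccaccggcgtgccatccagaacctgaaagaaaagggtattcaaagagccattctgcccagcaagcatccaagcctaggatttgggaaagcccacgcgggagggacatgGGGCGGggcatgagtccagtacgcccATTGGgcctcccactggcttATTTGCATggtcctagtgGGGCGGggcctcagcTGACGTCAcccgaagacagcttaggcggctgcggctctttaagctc

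Both strands were searched, no printed match overlaps another, and CACGTG was not in this window. Of all 32851 promoters of this length in the table, 33.8% held CCAAT, 1.6% the octamer, 32.7% the GC box, 1.55% the cAMP response element and 6.02% CACGTG. The window holds 11 CpG dinucleotides, a count that 35.6% of all promoters reach and that compares with a median of 6. The promoters of Samm50, Parvb, Pnpla2 and Pnpla8 hold 14, 15, 12 and 11, the 3 listed for Pnpla6 hold 14, 15 and 15, and that of Pnpla7 holds 6. No DNA methylation was measured here.

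Gm49513 (ENSMUSG00000116227.1, 84181914 to 84195881, plus strand) has 3 exons and 303 bases, and its model bridges Pnpla3 and Samm50. Exon 2 lies wholly within exon 8 of Pnpla3, in coding sequence. A fragment that touches the shared stretch was counted for both genes. The shared stretch is 105 bases, 34.7% of the Gm49513 model and 6.78% of the Pnpla3 model. A further 111 bases of exon 3 (84195744 to 84195854), 36.6% of the model, are also exon of Samm50. The counting kept no strand and let overlaps count for each gene, so on the shared stretches the signal of Gm49513 cannot be told apart from that of either neighbour. A fragment on the stretch shared with Samm50 is also a Samm50 count, so Samm50 counts bound that part. They were 700 beside 3439 of Gm49513 in T146 and 300 beside 2214 in T214. In T148 they were 204 beside 44, which sets no such bound.

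**Figure D1:**
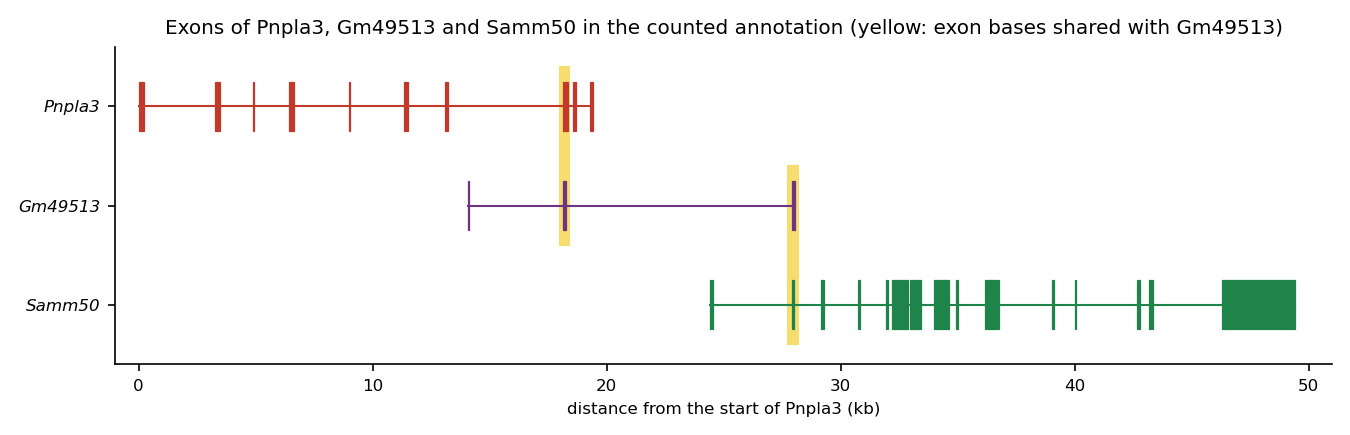
Exons (boxes) of Pnpla3, Gm49513 and Samm50 along the distance in kb from the start of Pnpla3, with the exon bases shared with Gm49513 in yellow. Exon 2 of Gm49513 shares 105 bases with Pnpla3, and exon 3 shares 111 bases with Samm50.

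Pnpla3 took one of 2 levels in each oocyte, with nothing between. Of the 94 oocytes, 31 had 71.4 CPM or more and 63 had 5.35 CPM or less, a gap of 13.3 times. All oocytes of T146, T213, T214 and Old_Tet1-/-_209 and the single oocyte of Old_Tet1-/-_315 were above the gap, and so was 1 of the 7 of Young_Tet1-/-_201. The other 6 of Young_Tet1-/-_201, all 7 of S161 and all 50 WT oocytes were below it.

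In young Tet1KO the level of Pnpla3 divided the 2 sets. The 8 oocytes of T146 had 71.4 CPM at the lowest, 116 CPM at the median and 145 CPM at the highest. Those of Young_Tet1-/-_201 had 1.204, 1.67, 1.73, 1.88, 3.41, 5.35 and 128 CPM, the last in oocyte 8. The 38 young WT oocytes had 0.343 CPM at the lowest, 1.92 CPM at the median and 4.24 CPM at the highest. Apart from oocyte 8 and 1 oocyte at 5.35 CPM, the range of Young_Tet1-/-_201 lay within that of young WT.

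Over sets, Pnpla3 was at 117 CPM in T146 and 19.5 CPM in Young_Tet1-/-_201, against 1.71, 2.05, 2.02 and 1.92 CPM in T148, T211, T231 and Young_WT__246. Both Tet1KO sets were above all 4 WT sets, and in Young_Tet1-/-_201 1 oocyte supplied 626 of the 699 counts. The fitted log2 change was 5.05. It was 5.97 among the T-series sets alone, 3.35 among the numbered sets alone (1 set against 1), and 4.46 without oocyte 8 of Young_Tet1-/-_201. The young WT sets also entered the comparison with young Tet2KO.

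Oocyte 8 of Young_Tet1-/-_201 had 4883052 counts in all and no count of Tet1. It had 2.25 CPM of Samm50, 4.10 CPM of Pnpla2, 14.5 CPM of Pnpla6 and 115 CPM of Pnpla8. Over the 14418 tested genes its log2 CPM correlated at 0.962 with the mean of Young_WT__246 and also at 0.962 with the mean of the other oocytes of its set. With Old_Tet1-/-_209, where Pnpla3 was high, it correlated at 0.954. All of these sets have numbered names. With T146, a T-series set, it correlated at 0.926. These correlations run across genes, which are not independent, and only describe the library.

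In young Tet2KO all 16 oocytes were high. T213 ran from 98.2 to 151 CPM with a median of 127 CPM, and T214 from 99.9 to 171 CPM with a median of 119 CPM. No Tet2KO oocyte overlapped young WT, whose highest oocyte had 4.24 CPM. Pnpla3 averaged 127 ± 2.1 CPM in young Tet2KO (SD, n = 2 sets) and 1.92 ± 0.15 CPM in young WT (n = 4 sets), a fitted log2 change of 5.68. Both Tet2KO sets belong to the T-series, and among T-series sets alone the log2 change was 6.02.

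Old_Tet1-/-_209 had 160, 183, 189, 191 and 201.3 CPM, and the oocyte of Old_Tet1-/-_315 had 123 CPM. S161, the old Tet2KO set, ran from 0.924 to 3.64 CPM with a median of 2.39 CPM. The 12 old WT oocytes had 0 CPM at the lowest, 1.38 CPM at the median and 2.67 CPM at the highest. The old Tet1KO oocytes lay above all others of their age, while those of old Tet2KO overlapped old WT.

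The set means were 154 ± 43.4 CPM in old Tet1KO (SD, n = 2 sets), 2.13 CPM in old Tet2KO (1 set) and 1.5 ± 0.11 CPM in old WT (n = 2 sets). The fitted log2 changes were 6.84 for old Tet1KO and 0.51 for old Tet2KO. S161 belongs to the T-series and both old WT sets have numbered names. Genotype and naming series therefore cannot be told apart for old Tet2KO, in any gene. The value of old Tet2KO turned to -0.44 with a term for the naming series of the sets. That term rests on young Tet1KO and young WT, the only groups with sets of both series, so -0.44 does not separate the 2. Old WT sets entered both comparisons. The oocyte at 0 was oocyte 5 of Old_WT_247, where 3772844 counts allow up to 0.795 CPM. Every other oocyte had at least 1 count of Pnpla3.

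**Figure D2:**
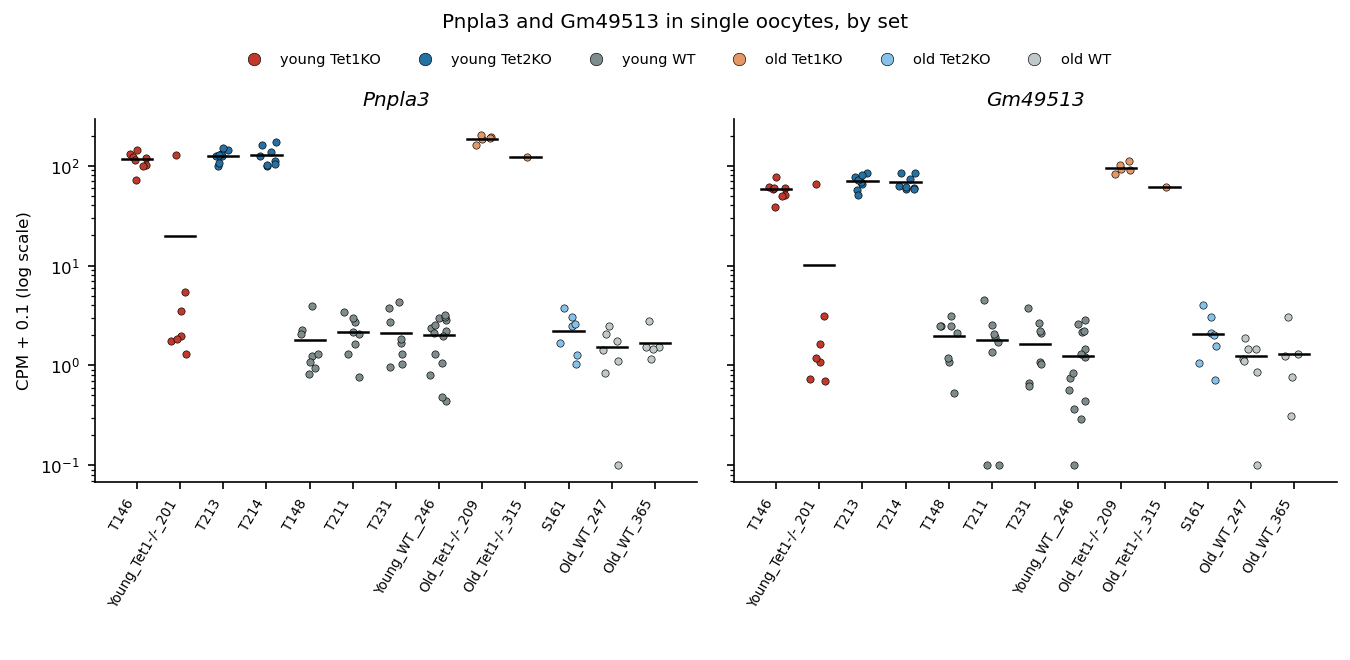
CPM of Pnpla3 and Gm49513, with 0.1 added, on a log axis for each oocyte (points), by set; horizontal lines are the CPM of the summed set. The high oocytes of Pnpla3 start at 71.4 CPM and the low ones end at 5.35 CPM, and 1 oocyte of Young_Tet1-/-_201 lies apart from the other 6.

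Gm49513 divided the oocytes in the same way. It had 38.7 CPM or more in the 31 oocytes with high Pnpla3, and 4.4 CPM or less in the other 63. Its set values were 58.4 and 10.1 CPM in T146 and Young_Tet1-/-_201 and 70.1 and 68.8 CPM in T213 and T214, against 1.88, 1.70, 1.52 and 1.14 CPM in the young WT sets. In old oocytes it was at 94.7 and 60.8 CPM in the 2 Tet1KO sets and at 1.95 CPM in S161, against 1.15 and 1.205 CPM in old WT. The order of the sets was thus close to that of Pnpla3, with which it shares exon bases.

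The ratio of Gm49513 counts to Pnpla3 counts was narrow where Pnpla3 was high. It was 0.501 in T146, 0.557 in T213, 0.534 in T214, 0.513 in Old_Tet1-/-_209 and 0.494 in Old_Tet1-/-_315. In single oocytes it ran from 0.464 to 0.541 in T146 and from 0.485 to 0.617 in T213. In the sets that were low throughout it was 0.594 to 1.10, on 30 to 143 Pnpla3 counts per set. Within T146, T213 and T214 the log2 CPM of both models correlated across 8 oocytes at 0.97, 0.91 and 0.96. Within low sets of 7 or more oocytes this correlation ran from 0.57 in T231 to 0.96 in Old_WT_247. Fragments on the shared exon enter both counts, so part of the steady ratio and of these correlations is built in. Gm20369, an antisense model of chromosome 15 that starts 14.9 kb into Pnpla3, had 0.271 ± 0.15 CPM in young Tet1KO, 0.814 ± 0.0078 CPM in young Tet2KO and 0.218 ± 0.077 CPM in young WT (SD over 2, 2 and 4 sets). Without strand its counts cannot be told apart from Pnpla3 precursor RNA.

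In the fit across 14418 genes, 3 genes passed an adjusted p of 0.05 in young Tet1KO against young WT (0.0208%), 2 in young Tet2KO against young WT (0.0139%), 5 in old Tet1KO against old WT (0.0347%) and 2 in old Tet2KO against old WT (0.0139%). Pnpla3 and Gm49513 were among them in the first 3 comparisons, which is how they came to be listed, and not in the last. In young Tet1KO 2 genes were higher (0.0139%) and 1 was lower (0.00694%), in young Tet2KO 2 were higher and 0 lower, in old Tet1KO 3 were higher (0.0208%) and 2 lower (0.0139%), and in old Tet2KO 2 were higher and 0 lower. Without oocyte 8 of Young_Tet1-/-_201 the calls in young Tet1KO fell to 1 and those in young Tet2KO to 0, without Old_WT_247 both old comparisons had 0, and without oocyte 6 of S161 old Tet2KO had 0. Of the other 6 members none was called in any comparison. At an unadjusted p under 0.05, 691, 835, 1794 and 267 genes passed in these comparisons. Parvb did not reach 1 CPM in 2 sets and was not tested, so 7 of the 8 members have a fitted change.

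Samm50 (ENSMUSG00000022437.7, 84192241 to 84217267, 6556 exon bases), the next coding gene downstream, was at 11.9 and 4.86 CPM in T146 and Young_Tet1-/-_201 and at 13.53 and 9.33 CPM in T213 and T214, against 8.72, 7.11, 5.86 and 5.21 CPM in the young WT sets. Both Tet2KO sets were above all WT sets, while the Tet1KO sets lay on either side of them. With so few sets many genes can be ordered so, and their share was not counted. Old sets had 7.72 and 4.24 CPM in old Tet1KO and 8.44 CPM in old Tet2KO, against 5.39 and 5.24 CPM in old WT.

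The edgeR log2 change of Samm50 was 0.45 ± 0.30 (SE) in young Tet1KO (adjusted p = 0.967), 0.54 ± 0.32 in young Tet2KO (adjusted p = 0.833), 0.34 ± 0.37 in old Tet1KO (adjusted p = 0.718) and 0.66 ± 0.53 in old Tet2KO (adjusted p = 1). In young Tet1KO it was -0.10 among the numbered sets alone. Between T146 and Young_Tet1-/-_201 the oocytes did not overlap, at 9.33 to 13.7 CPM and at 2.25 to 7.90 CPM. Oocyte 8 of the second set, with Pnpla3 high, was the lowest of them. How many genes divide these 2 sets in this way was not counted.

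Parvb (ENSMUSG00000022438.6, 84232043 to 84315688) was near the limit of detection everywhere, at 0.0524 to 0.727 CPM per set. It had 20 counts over the 6 old Tet1KO oocytes and 9 over the 7 old Tet2KO oocytes, against 3 over the 12 old WT oocytes. All 6 old Tet1KO oocytes had a count, and 5 of the 7 old Tet2KO oocytes, against 3 of the 12 old WT oocytes. The ratio of CPM in old Tet1KO to old WT was 12.6, with a 95% counting interval of 3.75 to 66.4, and that of old Tet2KO to old WT was 7.57 (1.89 to 43.5). These intervals cover counting error only, and old Tet2KO and old WT also differ in naming series. With no filter on low counts the edgeR log2 change in old Tet1KO was 3.71 ± 1.12 (adjusted p = 0.0548) and that in old Tet2KO was 2.81 ± 1.32 (adjusted p = 1), and neither passed.

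In young oocytes Parvb averaged 0.282 ± 0.082 CPM in Tet1KO, 0.472 ± 0.052 CPM in Tet2KO and 0.343 ± 0.091 CPM in WT (SD over 2, 2 and 4 sets). Young WT oocytes held 53 counts of Parvb, and their lowest set, at 0.228 CPM, was above both old WT sets. The effect of age was not tested.

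Of the relatives, Pnpla8 was the most abundant. Per kilobase of exon, the young WT levels were 7.21 ± 0.66 CPM for Pnpla8, 2.58 ± 0.73 for Pnpla2, 1.24 ± 0.098 for Pnpla3, 1.22 ± 0.56 for Pnpla6, 1.03 ± 0.24 for Samm50, 0.133 ± 0.030 for Pnpla7 and 0.0776 ± 0.021 for Parvb (SD, n = 4 sets each). Gm49513 stood at 5.15 ± 1.04 on this scale, with fragments of its shared exons counted in. Pnpla3, Pnpla6 and Samm50 did not differ beyond their SDs, and the other steps in this order were larger than the SDs of the genes beside them. In T213, T214 and Old_Tet1-/-_209 Pnpla3 was at 81.4, 83.3 and 119 CPM per kilobase, and Pnpla8 at 8.85, 10.0 and 7.85.

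Pnpla8 (ENSMUSG00000036257.15, chromosome 12, 44221370 to 44322532) was at 147 and 110 CPM in T146 and Young_Tet1-/-_201 and at 126 and 142 CPM in T213 and T214, against 112, 105, 102 and 89.7 CPM in the young WT sets. All 4 young knockout sets but Young_Tet1-/-_201 were above every young WT set. The share of all tested genes that do so was not counted, so this is a description only. The log2 change was 0.44 ± 0.16 in young Tet1KO (unadjusted p = 0.0209, adjusted p = 0.967) and 0.28 ± 0.17 in young Tet2KO (adjusted p = 0.833). In old oocytes the sets had 111 and 103 CPM in Tet1KO and 117 CPM in Tet2KO, against 134 and 107 CPM in WT, with log2 changes of -0.00 ± 0.19 and -0.05 ± 0.27 (adjusted p = 0.997 and 1). The young and old knockouts were not compared with each other.

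Pnpla2 (ENSMUSG00000025509.15, chromosome 7, 141455198 to 141460743) was at 4.75 and 6.79 CPM in the young Tet1KO sets and at 8.02 and 7.86 CPM in the young Tet2KO sets, against 7.74, 10.1, 8.56 and 4.81 CPM in young WT. The sets of each knockout overlapped those of young WT. Old sets had 9.19 and 4.61 CPM in Tet1KO and 9.85 CPM in Tet2KO, against 8.24 and 7.70 CPM in WT. Its log2 changes were -0.26 ± 0.37, -0.05 ± 0.33, -0.04 ± 0.38 and 0.30 ± 0.47 in young Tet1KO, young Tet2KO, old Tet1KO and old Tet2KO (adjusted p = 0.973, 0.987, 0.973 and 1). In young Tet1KO it was 0.50 among the numbered sets alone.

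Pnpla6 (ENSMUSG00000004565.15, chromosome 8, 3515384 to 3544267) was at 16.6 and 11.2 CPM in the young Tet1KO sets and at 6.81 and 6.40 CPM in the young Tet2KO sets, against 19.5, 9.71, 6.73 and 11.5 CPM in young WT. The Tet1KO sets lay within the WT range and the Tet2KO sets at its lower end. Old sets had 12.0 and 8.12 CPM in Tet1KO and 8.35 CPM in Tet2KO, against 6.70 and 14.6 CPM in WT. Its log2 change in young Tet2KO was -0.95 ± 0.46 (adjusted p = 0.822), in size the largest of the 5 tested genes other than Pnpla3 and Gm49513 in young oocytes, and no larger than 0.36 in size in the other comparisons.

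Pnpla7 (ENSMUSG00000036833.16, chromosome 2, 24976033 to 25054057) had 3 to 69 counts per set, at 0.364 to 1.59 CPM. It averaged 0.841 ± 0.083 CPM in young Tet1KO, 0.599 ± 0.21 CPM in young Tet2KO and 0.996 ± 0.22 CPM in young WT (SD over 2, 2 and 4 sets). In old oocytes it was at 0.853 and 0.364 CPM in the Tet1KO sets and 1.59 CPM in S161, against 0.985 and 0.629 CPM in WT. The log2 changes were -0.16 ± 0.48, -0.81 ± 0.51, -0.19 ± 0.59 and 0.96 ± 0.65 in the same order of comparisons, and none passed (adjusted p = 0.983, 0.843, 0.913 and 1).

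**Figure D3:**
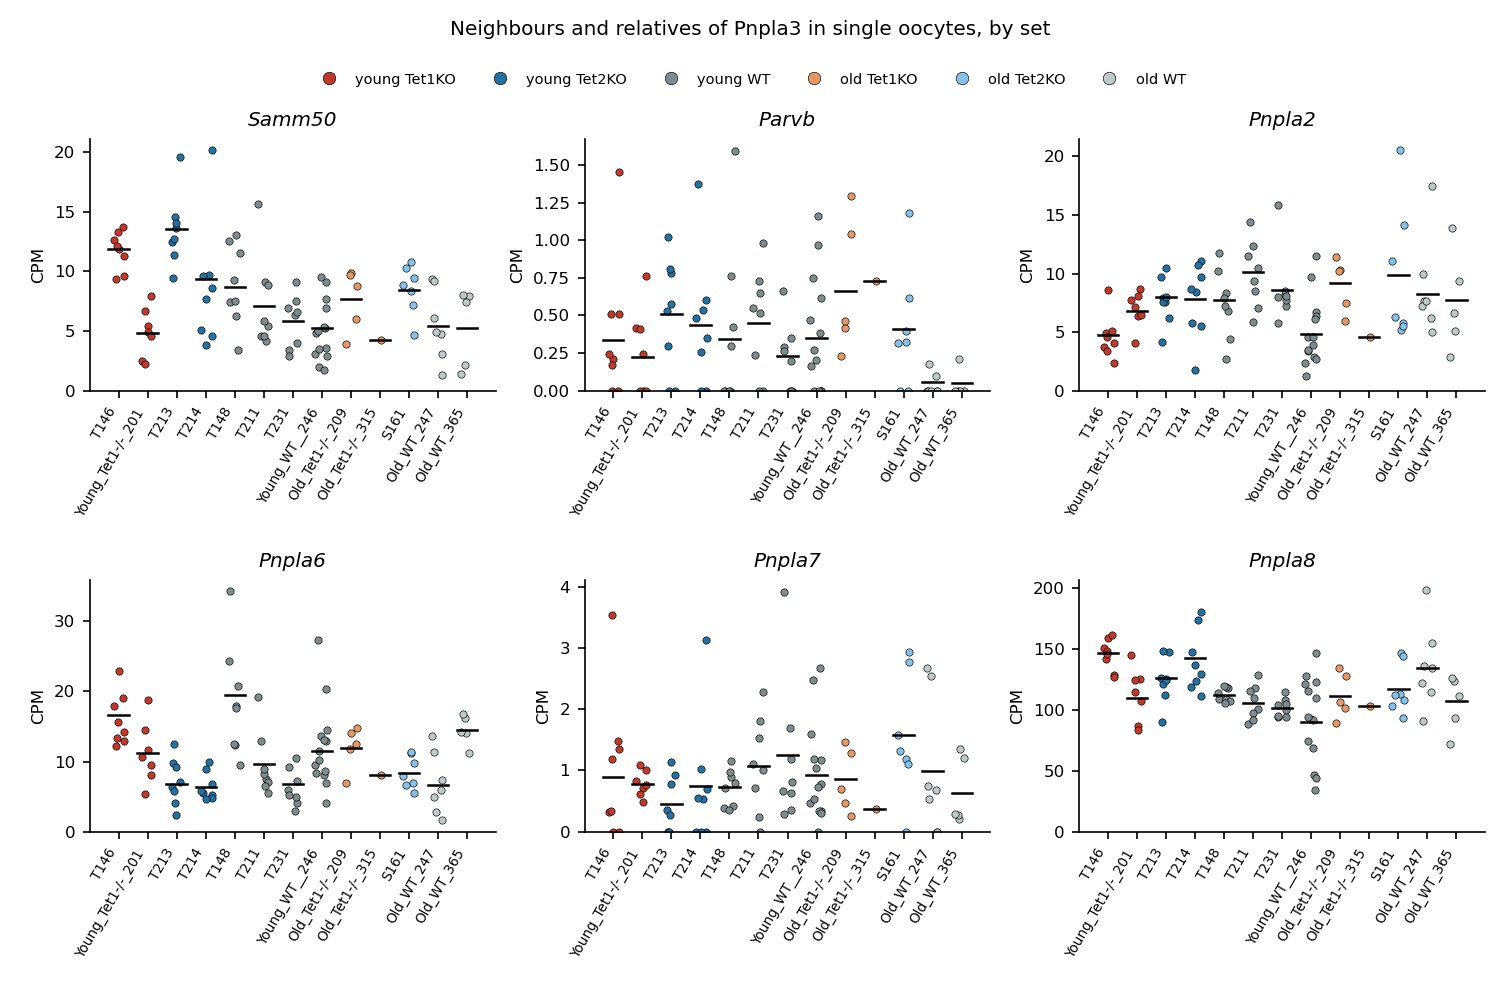
CPM of Samm50, Parvb, Pnpla2, Pnpla6, Pnpla7 and Pnpla8 in each oocyte (points) by set, on linear axes that start at 0; horizontal lines are the CPM of the summed set. No panel shows the 2 separate levels of Pnpla3, and Parvb is at or near 0 in the 2 old WT sets.

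The family has 2 more members in the tables. Pnpla1 was tested and not called, and averaged 1.87 ± 0.52 CPM in young Tet1KO, 0.600 ± 0.25 CPM in young Tet2KO and 0.768 ± 0.40 CPM in young WT (SD over 2, 2 and 4 sets). In old oocytes it averaged 0.608 ± 0.35 CPM in Tet1KO and 1.64 ± 0.54 CPM in WT (SD, n = 2 sets each), and was at 0.908 CPM in Tet2KO (1 set). Its log2 change was 1.30 in young Tet1KO, -0.33 in young Tet2KO, -1.20 in old Tet1KO and -0.86 in old Tet2KO. Pnpla5, which lies 55.5 kb upstream of Pnpla3 on the other strand, had at most 0.685 CPM in any set and was not tested. Over the 5 tested family members other than Pnpla3, the median log2 change was 0.31 in young Tet1KO, -0.33 in young Tet2KO, -0.04 in old Tet1KO and -0.05 in old Tet2KO. Over all genes these medians were 0.00, -0.01, -0.01 and -0.01.

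The neighbours of Pnpla3 along the chromosome were examined next. Of 19 genes that start within 500 kb, 8 were tested, and besides Pnpla3 and Gm49513 none of them was called in any comparison. The share called over all tested genes was 0.0139% to 0.0347%. Rtl6, a gene derived from a retrotransposon that lies 386 kb downstream, averaged 10.3 ± 8.0 CPM in young Tet1KO, 6.76 ± 1.69 CPM in young Tet2KO and 3.78 ± 2.26 CPM in young WT (SD over 2, 2 and 4 sets). In old oocytes Rtl6 was at 20.4 ± 5.5 CPM in Tet1KO and 4.4 CPM in Tet2KO, against 4.59 ± 2.77 CPM in WT. Its edgeR log2 change was 1.01 in young Tet1KO (adjusted p = 0.967), 1.33 in young Tet2KO (0.822) and 2.32 in old Tet1KO (0.150). In old Tet2KO it was -0.06. Mpped1, Efcab6, Sult4a1 and Shisal1 had log2 changes of 0.47, 0.18, -0.27 and 0.20 in young Tet1KO. They had 0.70, 0.15, -0.92 and -0.17 in young Tet2KO, and 0.57, 1.33, 1.58 and -0.09 in old Tet1KO.

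Within 5 Mb, 103 genes were tested. Leaving out Pnpla3 and Gm49513, 3.96% of the other 101 had a log2 change above 1 in size in young Tet1KO, 6.93% in young Tet2KO, 19.8% in old Tet1KO and 2.97% in old Tet2KO. Over all tested genes these shares were 5.34%, 4.76%, 13.1% and 8.80%. Of the 101 genes, Celsr1 in old Tet1KO was the only call.

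Celsr1, a cadherin of planar cell polarity that starts 1.73 Mb downstream, rose in old Tet1KO. It was at 59.2 and 45 CPM in Old_Tet1-/-_209 and Old_Tet1-/-_315, against 8.48 and 9.69 CPM in Old_WT_247 and Old_WT_365, a log2 change of 2.68 ± 0.32 (adjusted p = 0.0138). The call was lost without Old_Tet1-/-_315 (adjusted p = 0.0742), without Old_WT_247 (0.211) and without Old_WT_365 (0.101), at log2 changes of 2.80, 2.57 and 2.81. In young oocytes it was at 29.9 and 23.8 CPM in the Tet1KO sets and at 10.1 and 9.79 CPM in the Tet2KO sets, against 9.53, 10.6, 6.81 and 13.1 CPM in WT. Both young Tet1KO sets were above every young WT set, an order whose share over all tested genes was not counted. The log2 change was 1.44 ± 0.25 (adjusted p = 0.292).

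**Figure D4:**
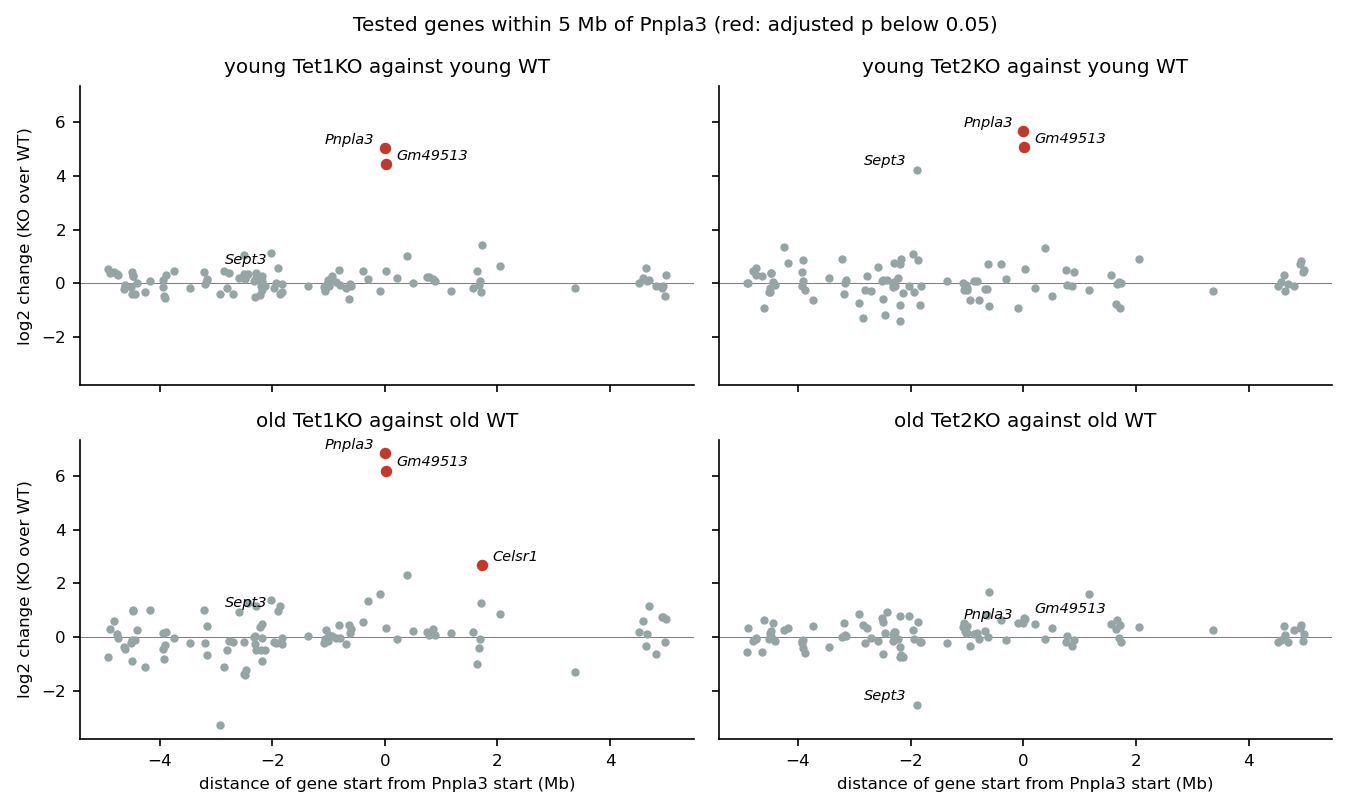
The log2 change (KO over WT) of the 103 tested genes within 5 Mb against the distance in Mb of their start from that of Pnpla3, 1 panel per comparison, with genes at an adjusted p below 0.05 in red. Pnpla3 and Gm49513 stand alone at the centre in 3 panels, and Celsr1 is the only other red point. Pnpla3 and Gm49513 were chosen by their high counts in these same knockout oocytes. Their red colour and their height follow from that choice and are not a test of them.

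The genes whose level went most with Pnpla3 over the 94 oocytes were sought among the 14417 other tested genes by Pearson's correlation of log2 CPM. The oocytes of a set share their source, and the values are given as a description with no test. Gm49513 came first at 0.98, with fragments of the shared exon counted for both genes. The next 5 were Gm21009 on chromosome 5 (0.63), Cdc5l on chromosome 17 (0.54), Sept3 on chromosome 15 (0.54), Plcxd2 on chromosome 16 (0.54) and Celsr1 (0.51). Samm50 was at 0.46, Pnpla8 at 0.33, Pnpla6 at -0.01, Pnpla2 at -0.04 and Pnpla7 at -0.18. By Spearman's correlation 3 of the 5 stayed among the first 5, with Samm50 at rank 4 (0.49), and over the 13 sets none did, with the mitochondrial fusion gene Mfn2 next after Gm49513 (0.78).

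Sept3, a septin that starts 1.89 Mb upstream of Pnpla3, also divided sets into high and low, but not the same ones. It was at 31.1 and 42.4 CPM in T213 and T214 and at 44.5 and 19.8 CPM in the old Tet1KO sets, where Pnpla3 was high, and at 31.9 CPM in Old_WT_247, where Pnpla3 was low. It was at 1.24 CPM in T146, where Pnpla3 was high. The other sets had 1.29 to 6.29 CPM. In Young_Tet1-/-_201 oocyte 8 had 33.6 CPM of Sept3 beside 51 CPM of Celsr1, both the highest of the set, as was its Pnpla3.

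Cdc5l, a splicing factor, was at 183 CPM in T214 and at 2.18 CPM in T213, so that its level split the 2 young Tet2KO sets, in both of which Pnpla3 was high. It was at 26.8 and 37.8 CPM in the young Tet1KO sets, against 0.416 to 7.77 CPM in young WT. Gm21009 never passed 1.33 CPM in a set, and Plcxd2 never passed 4.85 CPM.

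**Figure D5:**
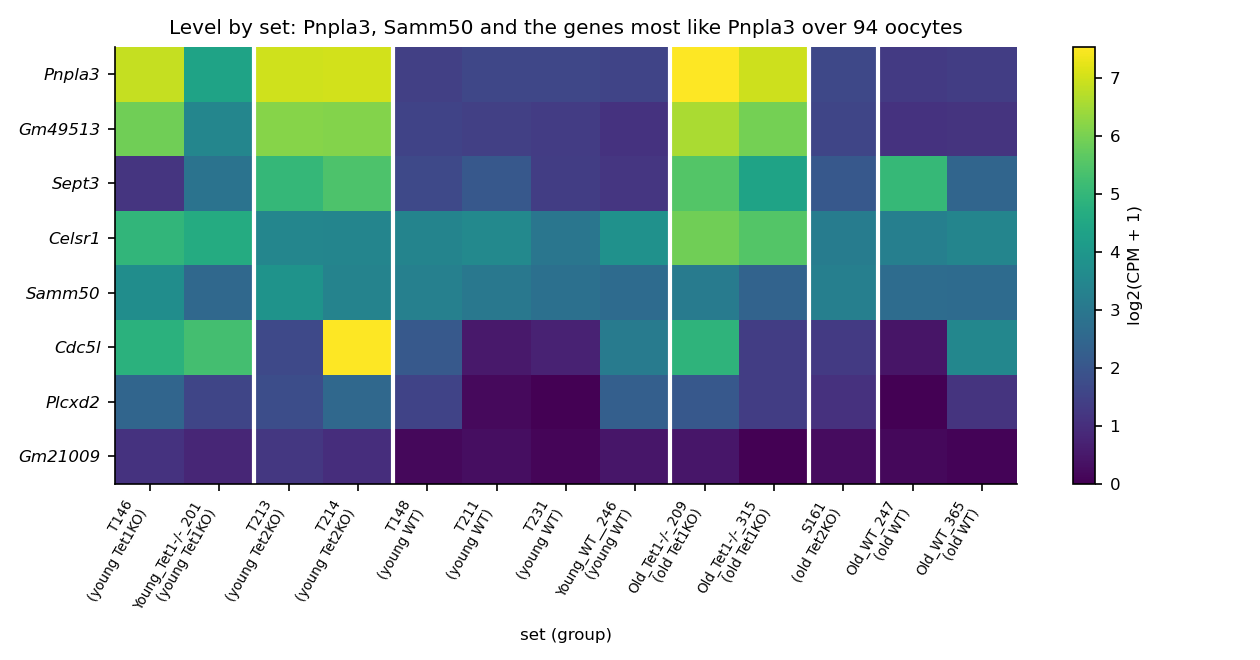
Level of Pnpla3, Samm50 and the 6 genes most like Pnpla3 in each set, as log2(CPM + 1) in colour, with sets in columns by group. Sept3 is low in T146 and high in Old_WT_247, and Cdc5l is high in T214 and low in T213.

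Other genes of lipid storage were not called. Of 12 genes of triglyceride lipolysis 7 were tested, of 19 of lipid droplet coat and assembly 10, of 21 of triglyceride synthesis 15 and of 20 lipogenic regulators and targets 15. In each list none was called higher or lower in any of the 4 comparisons. Over all tested genes only 0.0139% to 0.0347% were called, so the lack of a call in lists this short does not show a lack of change. The lowest adjusted p in these lists was 0.155, for Mlxipl, a carbohydrate-sensing factor known in liver to raise Pnpla3, in old Tet1KO. The largest median log2 change of these lists was 0.63, for the lipogenic list in old Tet1KO, beside -0.01 over all genes.

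Levels in young oocytes follow for the 2 genes of each lipid list that were highest per kilobase in young WT. Bscl2 (seipin, which forms lipid droplets) was at 367 ± 72.6 CPM in Tet1KO, 361 ± 57.6 CPM in Tet2KO and 385 ± 45.4 CPM in WT. Abhd6, a monoacylglycerol lipase, was at 105 ± 3.1, 106 ± 13.8 and 109 ± 7.2 CPM in the same order of groups. Dgat2, which makes triglyceride, was at 140 ± 3.1 CPM in Tet1KO, 70.5 ± 5.2 CPM in Tet2KO and 96.1 ± 24.7 CPM in WT. Insig1, which holds back sterol-regulated transcription, was at 635 ± 118 CPM in Tet1KO, 777 ± 47.7 CPM in Tet2KO and 732 ± 58.6 CPM in WT. In the same order of groups, Rab18 was at 174 ± 68.5, 205 ± 25.6 and 197 ± 49.0 CPM. Hilpda was at 6.59 ± 3.16, 7.97 ± 0.95 and 9.72 ± 2.37 CPM. Acsl3 was at 263 ± 2.0, 306 ± 54.3 and 226 ± 39.7 CPM. Me1 was at 1156 ± 274, 396 ± 0.77 and 753 ± 480 CPM (SD over 2, 2 and 4 sets throughout).

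None of the 13 tested genes of the mitochondrial outer membrane and cristae list, which holds partners of Samm50, was called, and none of the 11 tested genes of the integrin-linked kinase complex, which holds partners of Parvb. Here too the share called over all tested genes was 0.0139% to 0.0347%. Apoo, a cristae protein, was at 24.9 ± 14.6 CPM in young Tet1KO, 37.2 ± 8.7 CPM in young Tet2KO and 38.9 ± 7.4 CPM in young WT. Fermt2, an integrin activator, was at 138 ± 0.48, 143 ± 28.4 and 169 ± 31.8 CPM in the same order (SD over 2, 2 and 4 sets).

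In PGCs, 7 of the 8 members were in the authors' deposited table, as FPKM from 1 library per genotype, so no spread is known and a false discovery rate there compares 2 libraries, not genotypes. Tet2 itself had 2.96 FPKM in the library labelled Tet2KO and 3.19 FPKM in WT, a log2 ratio of -0.11 with a false discovery rate of 0.382 in the authors' deposited table, so its level did not set the labelled library apart. Pnpla3 had 1.26 FPKM in the library labelled Tet2KO and 1.18 FPKM in WT. In the authors' deposited table its log2 ratio was 0.09 with a false discovery rate of 0.725. Samm50 was the most abundant member, at 87.7 FPKM in the library labelled Tet2KO and 96.5 FPKM in WT, with a false discovery rate of 0.00109 in the authors' deposited table. Pnpla2, Pnpla6, Pnpla7 and Pnpla8 were at 24.1, 16.7, 20.3 and 17.9 FPKM in the library labelled Tet2KO and at 25.6, 17, 20.4 and 19.3 FPKM in WT. Parvb was at 7.80 FPKM in the library labelled Tet2KO and 11.1 FPKM in WT, a log2 ratio of -0.51 with a false discovery rate of 2.37e-09 in the authors' deposited table. Pnpla3 has 4649 bases in that table against 1548 in the oocyte counts, so the levels of the 2 cell types are not compared.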

How the data were processed

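The authors deposited gene counts, unnormalized, for the oocytes: per the file headers, featureCounts 1.6.2 counted fragments of mapping quality 30 or more over GENCODE release M17, with multi-mapped reads and overlaps counted for each gene and no strand. HISAT2, SAMtools and mm10 come from the submitters' processing notes, without versions. The authors deposited the PGC values as FPKM with log2 ratios and a false discovery rate, a score that reaches 1.02 and is no plain p-value; their depth is unknown.

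Of 135 samples, 39 could not be put in a group and 39 count columns matched no sample; neither is used. The 94 matched oocytes were summed into 13 sets. Of 342 pairs of oocytes of a set, 0 were identical. Sets carry T-series (with S161) or numbered names, which coincide with the 2 count tables. In old Tet2KO against old WT the naming series also coincides with genotype, so no difference there can be assigned to either.

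CPM is gene counts scaled to 1e6 per library, and levels between genes are per kilobase of exon. edgeR 4.0.16 in R 4.3.3 (TMM, quasi-likelihood test) was run on set sums of genes at 1 CPM or more in 2 or more sets (14418), with group means and a term for the naming series, left out for old Tet2KO against old WT, where the spread of the single S161 set was taken from the other groups. P-values are Benjamini-Hochberg adjusted over all tested genes, with a threshold of 0.05; the SE is the log2 change over the square root of F. Correlations use log2 CPM with a prior count of 2. DESeq2 1.42.0 and limma 3.58.1 (on set means of log2 CPM) were alternatives. The fits were tested on simulated data. Intervals on count ratios are exact and cover counting error only. Exon overlaps were taken from the gene models in the files and their coding status from GENCODE M21; the sequence of the shared exon is not reported here. 7 of the 8 members had a RefSeq promoter.

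The genes, the gene lists and the rule for named genes were chosen with earlier results of these data known. The rule names the 8 genes, Tet1 and Tet2, neighbours within 500 kb, genes called within 5 Mb, the 5 genes most like Pnpla3 besides Gm49513, and of each list the genes called and the 2 highest per kilobase in young WT. Not every gene that the rule names is printed. Pnpla1, Mlxipl and Mfn2 were named after their values were seen.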

Additional observations from a re-analysis of the deposited data

Results flagged for a closer look

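The CPM of each of the 8 genes was compared among the oocytes of each set of 4 to 10 oocytes and among the 4 young WT sets. In 15 of 96 such comparisons the highest value lay further from the next than Dixon's 95% limit allows. That limit assumes normally distributed values, while low counts are skewed towards high ones, so how often chance alone passes it is not known here. Pnpla3 and Gm49513 were also chosen by their values in these oocytes and share fragments. The values are therefore listed as a description. In Young_Tet1-/-_201, oocyte 8 had 128 CPM of Pnpla3 (the other 6 oocytes had 1.204 to 5.35 CPM) and 65.5 CPM of Gm49513 (the others 0.602 to 3.06 CPM). Among low oocytes, Pnpla3 was at 3.87 CPM in oocyte 2 of T148 on 13 counts and at 2.67 CPM in oocyte 3 of Old_WT_365 on 10 counts. Samm50 was at 20.2 CPM in oocyte 1 of T214 (the others at most 9.66 CPM) and at 15.7 CPM in oocyte 1 of T211 (at most 9.07 CPM). Parvb stood out at 1.45 CPM in oocyte 2 of T146, at 1.38 CPM in oocyte 5 of T214 and at 0.213 CPM in oocyte 1 of Old_WT_365, on 8, 5 and 1 counts. In Old_WT_365 the other oocytes had 0 counts of Parvb, where any single count stands apart by construction. Pnpla2 did so at 8.56 CPM in oocyte 1 of T146, 15.8 CPM in oocyte 2 of T231 and 17.4 CPM in oocyte 3 of Old_WT_247. Pnpla7 did so at 3.55 CPM in oocyte 6 of T146, 3.13 CPM in oocyte 2 of T214 and 3.93 CPM in oocyte 8 of T231, on 21, 12 and 15 counts. Every one of these values was a high one. None was found for Pnpla6 or Pnpla8, and none when the 4 young WT sets were compared with each other as sets.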

How the results depend on the processing

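Over young Tet1KO, young Tet2KO and old Tet1KO, the 78 values of Pnpla3 and Gm49513 under the alternatives kept their sign. Both genes were chosen by high counts in these knockout oocytes, so the kept sign is no check of them. In young Tet1KO the log2 change of Pnpla3 ran from 3.35 to 5.97. Neither gene was called in the young comparisons by limma on set means, nor without oocyte 8 of Young_Tet1-/-_201. Counts of called genes moved far more: DESeq2 called 30, 16, 313 and 11 genes in young Tet1KO, young Tet2KO, old Tet1KO and old Tet2KO, limma on set means 0, 0, 5 and 0, and no filter on low counts 252, 226, 564 and 243. RLE normalization gave 9 in old Tet1KO. T-series sets alone gave 9 and 6 in the 2 young comparisons, and numbered sets alone 6 in young and 15 in old Tet1KO. Without oocyte 8 of Young_Tet1-/-_201 the young comparisons had 1 and 0 calls. In old Tet2KO there was 1 call with the naming series term and 0 without oocyte 6 of S161, chosen after seeing the data. Leaving out 1 set at a time gave 3 to 8, 2 to 3, 0 to 16 and 0 to 1 calls. The cause was not tested. No paired analysis was possible because the sets of different groups share no number. Of 233 values of the 5 members open to a test, 212 kept direction and side of the threshold and 21 turned sign, none past the threshold. Among numbered sets alone, young Tet1KO gave -0.095 for Samm50, 0.50 for Pnpla2 and -0.036 for Pnpla6. Leaving out 1 set at a time, young Tet1KO ran from -0.066 to 0.77 for Samm50, -0.84 to 0.53 for Pnpla2 and -0.0070 to 0.64 for Pnpla6, and young Tet2KO from -0.18 to 0.083 for Pnpla2 and -0.16 to 0.11 for Celsr1. Old Tet1KO ran from -0.081 to 0.63 for Samm50, -0.55 to 0.30 for Pnpla2, -0.38 to 0.78 for Pnpla6, -0.92 to 0.18 for Pnpla7 and -0.13 to 0.15 for Pnpla8, and old Tet2KO from -0.85 to 0.33 for Pnpla6 and -0.19 to 0.079 for Pnpla8. Pnpla8 in old Tet1KO was 0.015 with DESeq2 and 0.016 with RLE normalization, and in old Tet2KO 0.0030 without oocyte 6 of S161. With the naming series term, old Tet2KO gave -0.085 for Samm50 and 0.046 for Celsr1. Celsr1 in young Tet2KO was -0.063 without that term and -0.015 without oocyte 8 of Young_Tet1-/-_201. Parvb and Pnpla7 are limited by their depth of 1 to 69 counts per set.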
